A study of Mus musculus with 11 samples.

Results

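The genes described here coat the lipid droplet or help to build it, and were chosen by name for these roles: the perilipins Plin1, Plin2, Plin3, Plin4 and Plin5, together with Cidec, Fitm1, Fitm2, Bscl2 and Hilpda. All 10 were among the 15453 genes with a value in each mouse, and in 9 of the 10 the mean of WT or pKO mice reached 50 normalized tags. Expression was measured in the epididymal white fat (eWAT) of 11 male mice (C57BL/6 in the sample labels, C57BL/6J in the study's methods) that ate a high fat diet from week 8 and were 16 weeks old at collection. The 6 wildtype (WT) mice were littermate controls, and the 5 Mest pKO mice had inherited an inactivated Mest allele from the father. Mest is an imprinted gene read from the paternal allele. The inactivated allele lacks exon 3, deleted with EIIa-cre in mice made from C57BL/6J ES cells, so the deletion is in the whole animal and not in adipocytes alone, and the maternal allele of pKO mice is intact. The comparison of WT with pKO mice asks what loss of Mest does to adipose gene expression during a high fat diet. The mice were taken from a larger diet cohort, and an effect of the genotype cannot be told apart from one of body fat, which was not analysed here.

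A white adipocyte stores triglyceride in a large droplet that buds from the endoplasmic reticulum, where seipin (Bscl2) and the FIT proteins (Fitm1 and Fitm2) take part in its assembly. Perilipins then bind the droplet's surface and control the access of lipases, while CIDEC gathers at contacts between droplets and lets the smaller empty into the larger. HILPDA is a small droplet protein, induced by hypoxia and fatty acids, that inhibits the lipase ATGL.

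In serial analysis of gene expression (SAGE) each transcript is read as 1 short tag that follows its CATG site nearest the poly(A) tail, and a gene's value (its normalized tags) is the number of tags over the size factor of that mouse's library. The predicted tags of Plin1 to Plin4, the FIT genes and Bscl2 are shown because these families are read apart by their tags alone. They were found in GENCODE M21 transcripts on GRCm38, are written 5′ to 3′ along the transcript, and carry the cutting site in capitals.
Plin1: CATGgcttcttcttcctcttctttttt
Plin2: CATGatgttgctggccagatgacccct
Plin3: CATGccatagggctggagagatggctc
Plin4: CATGgtagccagcacctaagccaataa
Fitm1: CATGggctaccagctggcgccccactg
Fitm2: CATGtgtaaacaagcgaattaaagggc
Bscl2: CATGacctgcgccttcgtgggtgtggc

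No other gene ended in the same 27-base tag for any of the 9 droplet genes whose tags were examined, and 7 of the 9 tags lay in the 3′ UTR. The tag of Plin1 was at chr7:79721191-79721217 on the minus strand, that of Plin2 at chr4:86656986-86657012 on the minus strand, and those of Plin3 and Plin4 at chr17:56277651-56277677 and chr17:56100612-56100638, also on the minus strand. Plin4 and Plin5 are neighbours, with 1797 bases between them. The tags of Fitm1 at chr14:55576676-55576702 and Bscl2 at chr19:8847427-8847453, both on the plus strand, fell in coding sequence, and that of Fitm2 at chr2:163466399-163466425 on the minus strand in the 3′ UTR. The last 17 bases of the Plin3 tag also occurred in transcripts of 481 other genes, while 0 other genes lay within 2 mismatches of the whole Plin3 tag. The count of 481 does not show whether reads of Plin3 were assigned elsewhere, which was not tested. For Plin1, 1 other gene held the last 17 bases of the tag and 0 lay within 2 mismatches of the whole tag. Within 2 mismatches of the Plin2 tag lay the tag of 1 other gene, Gm12551, which makes the values of Plin2 less certain.

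The labels were checked on Mest itself, for which WT mice averaged 25107 ± 2672 normalized tags (SD, n = 6) and pKO mice 1663 ± 566 (SD, n = 5), with no overlap (limma adjusted p = 1.2e-06). Libraries of WT mice held 9659740 to 14825727 tags and those of pKO mice 11320342 to 14626803, and libraries differed from each other by more than sampling noise. The pKO libraries were less alike than the WT libraries. The mean r of a library with the others of its genotype was 0.954 to 0.971 in WT and 0.925 to 0.950 in pKO mice. All 8 adipocyte markers were detected, with summed levels of 700590 to 1094400 in WT and 755630 to 1125500 in pKO mice. In bulk tissue fewer cells of a type and less RNA per cell cannot be told apart. Macrophage markers summed to 6502 to 10803 in WT and 4918 to 8364 in pKO mice. Itgam, Itgax, Trem2 and Gpnmb, 4 of the 9 listed that reached a mean of 50, were lower in pKO mice at a limma p of at most 0.05 (5.77% of all genes were). None of the 4 passed an adjusted p of 0.1. The log2 fold changes of the macrophage genes Emr1 and Cd163, which did not pass, were -0.013 and 0.23.

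Cidec and Plin4 dominated the droplet genes of eWAT, and Fitm1, the FIT gene known from muscle, was close to the detection limit. Because SAGE counts 1 tag per transcript, tags of different genes are set side by side without division by length. The predicted tag was the last one in 2 of 7 annotated transcripts of Plin1, 2 of 8 of Plin2 and 1 of 2 of Plin3. For Plin4 it was the last in 2 of 2, for Cidec in 2 of 4 and for Bscl2 in 9 of 10. How far the order of levels depends on the recovery of each tag was not tested. Over the 11 mice the mean level was 59421 normalized tags for Cidec, the 14th most abundant gene of the table, and 26116 for Plin4, the 42nd. Plin3 (2784), Plin1 (2662), Hilpda (2465), Plin2 (2382) and Bscl2 (1844) formed a middle group, followed by Fitm2 (1096). Plin5, a perilipin of oxidative tissues, was at 122 and Fitm1 at 3.31. The 10 genes together took between 0.61% and 1.07% of the tags of a library.

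**Figure D1:**
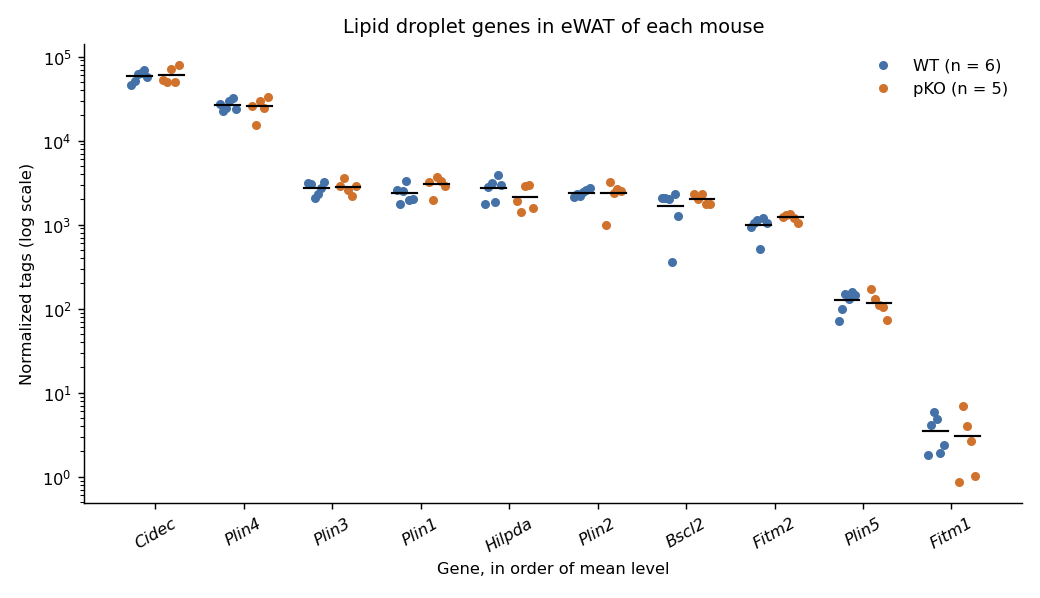
Normalized tags of the 10 droplet genes on a log axis, in order of mean level, with 1 point per mouse (blue WT, n = 6; orange pKO, n = 5) and a bar at each genotype mean. Cidec and Plin4 lie above the other droplet genes in every mouse, WT and pKO points overlap for each gene, and single low points stand out for Bscl2 and Fitm2 in WT and for Plin2 and Plin4 in pKO mice.

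Cidec exceeded Plin4 in 11 of 11 mice, by 2.28-fold between the means (exact sign-flip permutation test over mice, 2-sided, adjusted p = 0.0022 over the 9 neighbouring pairs). Plin4 exceeded Plin3 by 9.38-fold, Fitm2 exceeded Plin5 by 8.98-fold and Plin5 exceeded Fitm1 by 36.9-fold, each in 11 of 11 mice (exact test, adjusted p = 0.0022, from the smallest p that 11 mice allow). Bscl2 was 1.68-fold above Fitm2 and higher in 10 of 11 mice (exact test, adjusted p = 0.0053). The neighbours from Plin3 down to Bscl2 did not differ beyond their spread. Plin3 was above Plin1 in 5 of 11 mice (adjusted p = 0.67), Plin1 above Hilpda in 7 (0.63), Hilpda above Plin2 in 7 (0.88) and Plin2 above Bscl2 in 10 (0.20), all by the same exact test.

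None of the 10 droplet genes differed between the genotypes at a limma p of at most 0.05, where 10.6% of the 9906 genes that reached a mean of 50 in WT or pKO mice did, 4.85% higher and 5.77% lower in pKO mice. Fitm1 did not reach that mean, so the share stands beside the other 9 genes. In 9 genes a count of 0 is not read as a difference from that share. With the adjusted p held to 0.1 the count was also 0 of 10, against 0.0505% of all genes, and edgeR's quasi-likelihood test and DESeq2 likewise called 0 of 10 at either threshold. Over all 15453 genes, with no minimum mean, edgeR called 1374 at the p of 0.05 and 5 at the adjusted p of 0.1. DESeq2 called 1439 and 138 of them. The WT and pKO values overlapped for every droplet gene, where 1.43% of all genes had no overlap. Of the 9 genes with a mean of at least 50, 5 had a positive and 4 a negative log2 fold change (pKO minus WT), with a median of 0.04 beside 0.01 over all genes.

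**Figure D2:**
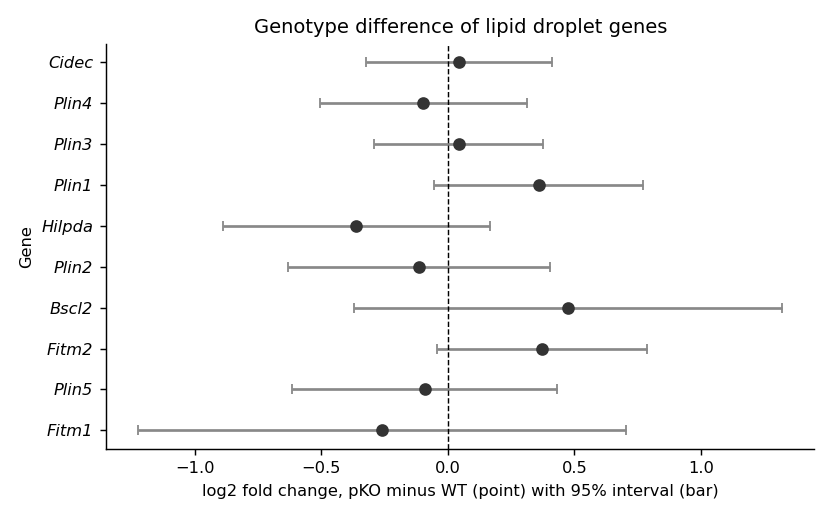
Log2 fold change (pKO minus WT, on log2(value + 1)) of each droplet gene from limma, as a point with its 95% confidence interval. Every interval includes 0, those of Plin1 and Fitm2 with lower ends at -0.05 and -0.04, and those of Bscl2 and Fitm1 are the widest.

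Plin1, the perilipin of mature fat cells that gates hormone-stimulated lipolysis, ranged in WT mice from 1739 to 3303 normalized tags with a median of 2280. In pKO mice it was at 3199, 1962, 3700, 3345 and 2916 in replicates 1 to 5. Of the 5 pKO mice 4 lay above the WT median, with replicate 2 among the low WT values. The means were 2360 ± 570 (SD, n = 6) and 3024 ± 658 (SD, n = 5), a log2 fold change of 0.36 (standard error 0.19, 95% interval -0.05 to 0.77, limma adjusted p = 0.573). The exact permutation test of Plin1 over all splits of the mice gave p = 0.12. Plin1 passed a limma p of 0.05 in the fit without WT replicate 4 (log2 fold change 0.46) and in that without pKO replicate 2 (0.51).

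Plin2, the coat protein of droplets in most cell types, had the narrowest spread of the perilipins in WT mice, from 2159 to 2735 with a median of 2357. The pKO values were 997, 3227, 2407, 2682 and 2515. Replicate 1 was less than any WT mouse and replicate 2 more than any, so the pKO mice enclosed the WT range. Means of 2396 ± 233 (SD, n = 6) and 2366 ± 828 (SD, n = 5) gave a log2 fold change of -0.11 (95% interval -0.63 to 0.40, exact permutation p = 0.88). Without pKO replicate 1 it was 0.17. In that library the log2 difference of Plin2 from the mean of the other pKO mice was -1.43. More than 1 below those mice were 613 of the 9906 genes (6.19%) there, a share of 2.03% to 5.88% in the other pKO libraries.

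Plin3, which moves from the cytosol to nascent droplets, was at 2068 to 3219 in WT mice (median 2872.5) and at 2848, 3617, 2604, 2218 and 2854 in pKO mice. The 2 genotypes covered nearly the same range, and the log2 fold change was 0.04 (standard error 0.16, 95% interval -0.29 to 0.38, exact permutation p = 0.79). Its sign turned without WT replicate 3 (-0.036), WT replicate 4 (-0.0035) or pKO replicate 2 (-0.051).

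Plin4, a cytosolic perilipin of white fat that coats small new droplets, ranged from 22635 to 32383 in WT mice with a median of 25859. The pKO values were 25580, 15131, 29669, 24296 and 32914, and replicate 2 alone was below the WT range. The log2 fold change was -0.10 (95% interval -0.50 to 0.31, exact permutation p = 0.70), and 0.080 without pKO replicate 2.

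Plin5, which links droplets to mitochondria in oxidative tissues, was at 72.2 to 156 in WT mice (median 137) and at 172, 131, 110, 104 and 73.7 in pKO mice. High and low mice occurred in both genotypes, over a 2.38-fold range. Its log2 fold change was -0.09 (95% interval -0.61 to 0.43, exact permutation p = 0.73), and 0.063 without pKO replicate 5.

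The 5 perilipins of WT mice summed to 34243 ± 3944 normalized tags (SD, n = 6) and those of pKO mice to 33854 ± 6612 (SD, n = 5), a log2 difference of -0.03 that was within the spread of the mice (exact permutation test, p = 0.84). Plin4 made up 77.5% ± 2.36 of that sum in WT and 74.4% ± 6.74 in pKO mice. Plin1 contributed 6.90% ± 1.44 in WT and 8.97% ± 1.32 in pKO mice, and its share ranged from 4.91% to 8.80% and from 7.07% to 10.2%. Plin3 contributed 8.13% ± 1.83 in WT and 8.84% ± 3.55 in pKO mice, and Plin2 from 6.12% to 8.62% and from 3.04% to 13.4%. Plin5 was 0.37% of the sum in either genotype. The log2 difference was positive without WT replicate 5 (0.013) or pKO replicate 2 (0.085).

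Cidec, whose protein enlarges droplets by lipid transfer and favours the single large droplet, ranged from 45897 to 69053 in WT mice with a median of 59651. In pKO mice it was at 52776, 50288, 70620, 50304 and 79678. Replicates 3 and 5 were above every WT mouse and the other 3 within the WT range. The means of 58328 ± 8550 (SD, n = 6) and 60733 ± 13582 (SD, n = 5) gave a log2 fold change of 0.04 (standard error 0.17, 95% interval -0.32 to 0.41, exact permutation p = 0.77). It turned negative without WT replicate 1 (-0.022), pKO replicate 3 (-0.017) or pKO replicate 5 (-0.061).

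Bscl2 encodes seipin, which holds the junction between the endoplasmic reticulum and the growing droplet. It ranged from 359 to 2301 in WT mice with a median of 2051, and was at 2284, 2035, 2298, 1752 and 1785 in pKO mice. WT replicate 4 had the 359 tags and WT replicate 6 had 1275, while the other 4 WT mice lay between 2027 and 2301. The log2 fold change was 0.48 (standard error 0.39, 95% interval -0.37 to 1.32, exact permutation p = 0.44), and 0.07 without WT replicate 4. The residual SD of Bscl2 on the log2 scale, 0.78, was at the 95.3rd percentile of the 9906 genes, whose median was 0.30. In WT replicate 4 the log2 difference of Bscl2 from the mean of the other WT mice was -2.41, and 41 of the 9906 genes were further below. The share of genes more than 1 below was 4.10% in that library and 0.66% to 2.34% in the other WT libraries.

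Fitm2, which helps to package triglyceride into droplets in fat, ranged from 517 to 1206 in WT mice with a median of 1043. The pKO values were 1236, 1318, 1353, 1202 and 1057. All 5 pKO mice exceeded the WT median and 3 exceeded every WT mouse, while WT replicate 4 was again the lowest. Means of 981 ± 246 (SD, n = 6) and 1233 ± 116 (SD, n = 5) gave a log2 fold change of 0.37 (standard error 0.19, 95% interval -0.04 to 0.79, limma adjusted p = 0.555). The exact permutation test gave p = 0.043 for Fitm2 alone, the lowest among the 10 genes. Without WT replicate 4 the log2 fold change was 0.20, and without WT replicate 5 it was 0.44 and passed a limma p of 0.05.

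Fitm1 was read by 1 to 7 tags in each library, at 1.83 to 5.85 normalized tags in WT mice (median 3.23) and at 0.86, 6.88, 4.07, 2.65 and 1.02 in pKO mice. At this depth a difference could not be read, and the log2 fold change of -0.26 had a 95% interval of -1.22 to 0.70 (exact permutation p = 0.55). Skeletal muscle markers, of which 4 of the 6 listed were in the table, summed to 83.9 to 130 in WT and 65.5 to 277 in pKO mice.

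Hilpda ranged from 1766 to 3857 in WT mice with a median of 2866. In pKO mice it was at 1911, 1406, 2891, 2932 and 1583. Replicates 2 and 5 were below every WT mouse, and replicates 3 and 4 were close to the WT median. The means were 2731 ± 795 (SD, n = 6) and 2145 ± 723 (SD, n = 5), a log2 fold change of -0.36 (standard error 0.25, 95% interval -0.89 to 0.17, limma adjusted p = 0.663). It stayed negative without each mouse, between -0.49 and -0.23.

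**Figure D3:**
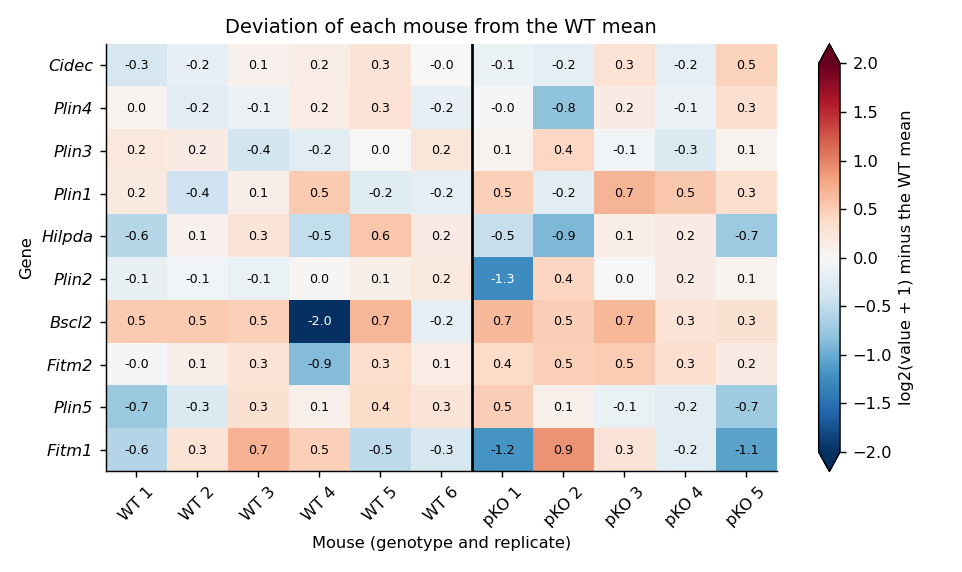
Deviation of each mouse from the WT mean on log2(value + 1), with droplet genes in rows and the 6 WT and 5 pKO mice in columns; red is above and blue below the WT mean, and the number is printed in each cell. Outside Fitm1, which was read by few tags, the strongest blue cells of WT mice are Bscl2 (-2.0) and Fitm2 (-0.9) in replicate 4. Those of pKO mice are Plin2 (-1.3) in replicate 1 and Hilpda (-0.9) and Plin4 (-0.8) in replicate 2. Hilpda is also blue in pKO replicates 1 (-0.5) and 5 (-0.7) and slightly red in replicates 3 (0.1) and 4 (0.2). No row is of 1 colour in all pKO mice against the other in all WT mice.

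A ratio of tags taken within a library does not depend on how libraries were scaled, so each gene was also set against Plin1. The tests used log2(value + 1), so for Fitm1, with few tags, the number added mattered. Its log2 difference was -0.62, and -0.41 with a pseudocount of 10. None of the 9 ratios differed between genotypes after adjustment (exact permutation test, adjusted p from 0.27 to 0.97). WT mice had 11.7 ± 2.78 Plin4 tags per Plin1 tag (SD, n = 6) and pKO mice 8.46 ± 1.61 (SD, n = 5), a log2 difference of -0.46 (exact permutation test, p = 0.030, adjusted p = 0.27). Hilpda had 1.25 ± 0.54 tags per Plin1 tag in WT, from 0.57 to 1.97, and 0.70 ± 0.14 in pKO mice, from 0.54 to 0.88 (log2 difference -0.72, exact permutation test, p = 0.069, adjusted p = 0.31). Ratios to Plin1 move with Plin1 itself, whose own values are given above.

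The droplet genes were also compared with each other across mice, after the mean of each genotype was taken out. None of the 45 pairs held after adjustment (lowest adjusted p = 0.52 for Pearson's r and 0.66 for Spearman's rho, exact permutation within genotypes), and the median r was -0.05. Bscl2 and Fitm2 had r = 0.92 (exact permutation p = 0.026) and rho = 0.60 (p = 0.088), and r was 0.49 without WT replicate 4 and pKO replicate 5, the mice farthest from the median of Fitm2. Without WT replicate 4 alone r was 0.38 (exact permutation p = 0.32), so the relation rests on that mouse. Plin4 and Cidec had r = 0.68 (exact permutation p = 0.037) and rho = 0.70 (p = 0.029), with r = 0.56 without pKO replicates 2 and 5. Without WT replicate 1 their rho was 0.85 and passed adjustment (exact permutation, adjusted p = 0.047), while their r did not (adjusted p = 0.25). Plin1 and Plin3 ran in opposite directions, with r = -0.69 (exact permutation p = 0.035), rho = -0.66 (p = 0.041) and r = -0.49 without WT replicate 2 and pKO replicate 2. Fitm2 and Hilpda were the remaining pair with an unadjusted p under 0.05 (r = 0.56, p = 0.046, rho = 0.58, p = 0.061, exact permutation, r = 0.46 without the 2 farthest mice).

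**Figure D4:**
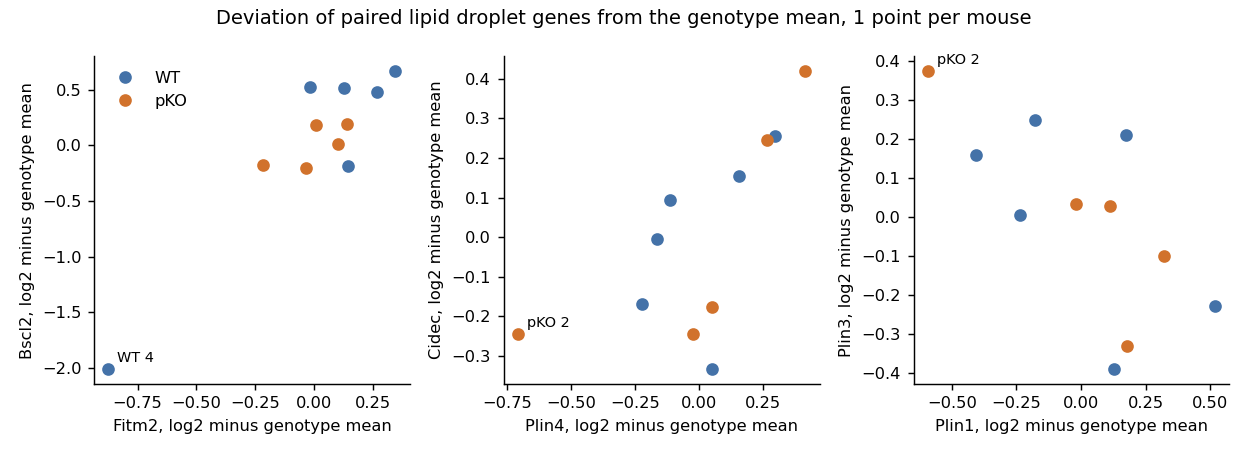
Deviation from the genotype mean on log2(value + 1) for 3 pairs of droplet genes, 1 point per mouse (blue WT, orange pKO). WT replicate 4 lies apart from all others for Fitm2 and Bscl2 (r = 0.92, and 0.49 without it and pKO replicate 5), Plin4 and Cidec rise together (r = 0.68), and Plin3 is lower where Plin1 is higher (r = -0.69). No pair of droplet genes held after adjustment over the 11 mice.

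Within the 6 WT mice, where Mest ranged from 20756 to 27897, no droplet gene was related to Mest after adjustment over the 10 genes (exact permutation over pairings, lowest adjusted p = 0.73). Plin3 had r = 0.62 (exact p = 0.18) and rho = 0.77 (exact p = 0.10), and r = 0.54 without the 2 mice farthest from the median of Mest. Fitm1 had r = -0.69 (exact p = 0.14) and rho = -0.60 (exact p = 0.24), and r was 0.07 without those 2 mice, so its relation rests on them.

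Genes that work beside the droplet coat were taken from lists of known roles. Of 22 other genes of the droplet surface and its growth, 21 were in the table and Hsd17b13 was not analysed here. Of the 17 with a mean of at least 50, 0 passed a limma p of 0.05 in either direction, where 10.6% of all genes did, and their median log2 fold change was -0.01. By edgeR and by DESeq2 0 passed as well, of 1374 and 1439 called over all 15453 genes. The most abundant were the caveolar genes Cav1, with means of 82245 (WT) and 82837 (pKO), and Ptrf (cavin-1), with means of 26307 and 23888. Single mice moved this count, to 1 without WT replicate 3 or 6 (Faf2), 2 without pKO replicate 4 (Faf2 and Acsl1) and 1 without pKO replicate 5 (Hsd17b11).

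Among 9 partners of droplet lipolysis, 3 had a limma p of at most 0.05 and all 3 were higher in pKO mice, beside 4.85% of all genes, and the median log2 fold change of the list was 0.18 (0.01 over all genes). Pnpla2 encodes ATGL, the lipase that starts triglyceride breakdown and that Plin1 restrains indirectly. It ranged from 12376 to 18687 in WT mice with a median of 15434, and was at 18441, 17479, 29520, 25440 and 21350 in pKO mice. The pKO mice lay above all WT mice but 1, WT replicate 6, and the log2 fold change was 0.55 (standard error 0.16, limma adjusted p = 0.37, exact permutation p = 0.0087). G0s2, a protein inhibitor of ATGL, ranged from 15139 to 24757 in WT mice and was at 29277, 22694, 26898, 24590 and 29370 in pKO mice, and its log2 fold change was 0.48 (limma adjusted p = 0.37, exact permutation p = 0.015). Adrb3, the adipocyte receptor for catecholamines, averaged 2530 ± 916 in WT mice (SD, n = 6) and 4229 ± 1074 in those with the pKO allele (SD, n = 5), and its log2 fold change was 0.80 (limma adjusted p = 0.40, exact permutation p = 0.039). None of the 3 passed an adjusted p of 0.1, and each kept a limma p under 0.05 in all 11 fits that left out a mouse. Without pKO replicate 1 Prkaca was also higher, and without pKO replicate 2 Prkar2b was lower.

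Of 10 triglyceride synthesis enzymes, 1 was higher and 0 lower in pKO mice by limma, near the 10.6% of all genes called in either direction, with a median log2 fold change of 0.09. Agpat6 (GPAT4), an acyltransferase that can act at droplets, averaged 1730 ± 187 in WT mice (SD, n = 6) and 2245 ± 264 in pKO animals (SD, n = 5), with a log2 fold change of 0.37 (limma adjusted p = 0.37, exact permutation p = 0.0065). Dgat2, which makes triglyceride at the droplet, was the most abundant enzyme of the list. It ranged from 72401 to 105910 in WT mice and was at 88090, 106820, 35600, 97116 and 9904 in pKO mice, with the low values in replicates 3 and 5. Its log2 fold change was -0.92, and it passed a limma p of 0.05, lower in pKO mice, in the fits without pKO replicate 2 or 4. Agpat9, another acyltransferase, was higher without pKO replicate 4, and edgeR and DESeq2 each called 2 genes of the list higher, Agpat6 and Agpat9. At the same p edgeR called 1374 and DESeq2 1439 of all 15453 genes, in either direction and with no minimum mean. Dgat1 had means of 3395 (WT) and 3756 (pKO).

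Of 9 hypoxia-induced genes with a mean of at least 50, 0 passed a limma p of 0.05, where 10.6% of all genes did, with a median of 0.09. By edgeR and by DESeq2 0 passed as well, of 1374 and 1439 called over all 15453 genes. Bnip3 had means of 26175 (WT) and 27855 (pKO) and Ldha of 23853 and 22539, and Ldha was lower in pKO mice in the fit without pKO replicate 2. Among PPARG, the regulator of fat cell genes that include perilipins and Cidec, and its partners, 1 of the 5 that reached a mean of 50 was higher (10.6% of all genes were called in either direction). Cebpa averaged 23100 ± 2256 in WT mice (SD, n = 6) and 29530 ± 3638 in pKO animals (SD, n = 5), with a log2 fold change of 0.35 (limma adjusted p = 0.43, exact permutation p = 0.011). Pparg itself was at 8860 and 9813 on average, with a log2 fold change of 0.13. Without WT replicate 5 or pKO replicate 4 Ppara was also higher.

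**Figure D5:**
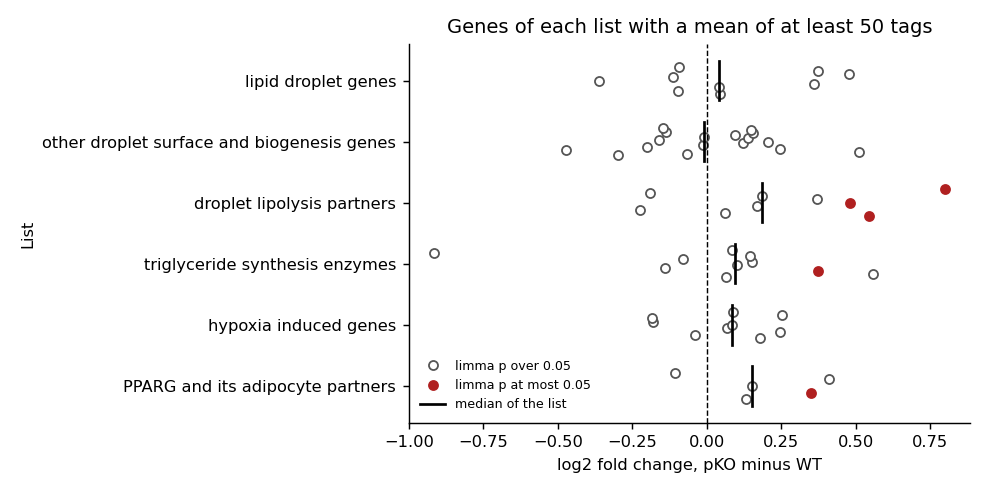
Log2 fold change (pKO minus WT) of each list gene that reached a mean of 50 normalized tags, by list, beside a bar at the list's median; filled points have a limma p of at most 0.05. The filled points are Pnpla2, G0s2 and Adrb3 among the lipolysis partners, Agpat6 among the synthesis enzymes and Cebpa among the PPARG partners, and there is none among the droplet genes.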

How the data were processed

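RNA of eWAT was profiled by SOLiD SAGE, 1 library per mouse. Tags were aligned by the authors with SOLiD SAGE Analysis Software that they had modified, counted per gene and deposited as a normalized value (signal) per gene and library. The values were whole multiples of 1 step per library (100% within 0.01), that is, tag counts divided by a size factor. The submitters' processing notes give mm10 as the build, and the gene annotation is not given in the sources used here. WT and pKO mice were compared on log2(value + 1) with limma 3.58.1 (eBayes with trend) over 15453 genes with Benjamini-Hochberg adjustment. Fold changes on that scale understate the change of genes with few tags. Genes were counted when p was at most 0.05, or adjusted p at most 0.1, and the mean of WT or of pKO mice reached 50.

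The 10 genes and all lists were chosen with earlier results of these data known. Named genes were the 10 droplet genes, Mest, list genes that met both the limma p of 0.05 and the mean of 50, the 2 most abundant genes of each list, the 2 genes most like each droplet gene, and markers past that p. Genes that passed only without a mouse, and Gm12551, Emr1 and Cd163, which fell outside this rule, were named after their values were seen. Exact permutation tests were 2-sided over all splits of the mice, with a smallest p of 0.0022. Correlations used values with genotype means removed, and each mouse was counted once. Alternatives were pseudocounts of 0.5 and 10, total-count, TMM (edgeR 4.0.16) and median-of-ratios scaling (DESeq2 1.42.0), a filter of 10 tags, other variance models, limma-voom, edgeR, DESeq2, the replicate block and each mouse left out. The limma step was tested on simulated data with larger changes than those of the droplet genes, so power at their size was not tested. Predicted tags were found in GENCODE M21 transcripts for the 9 droplet genes whose tags are reported, and that of Plin5 is not reported here.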

Additional observations from a re-analysis of the deposited data

How the results depend on the processing

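The count of droplet genes at a limma p of at most 0.05 was 0 under all 13 other settings (pseudocounts, scalings, filter, variance models, limma-voom, edgeR, DESeq2, replicate block, no minimum mean) and 0 to 1 when each mouse was left out: 1 without WT replicate 4, 1 without WT replicate 5 and 1 without pKO replicate 2. Median-of-ratios scaling gave the deposited values again, and dropping the minimum mean left every p unchanged, so neither setting is a separate check. Over all 15453 genes, with no minimum mean, the fits without WT replicate 4, WT replicate 5 and pKO replicate 2 called 1430, 1369 and 1976. At an adjusted p of at most 0.1 the count of droplet genes was 0 in every fit. Of all genes, DESeq2 called 138 at that adjusted p, the fit without pKO replicate 2 called 106 and the main fit 5. The mice with the same replicate number did not deviate together (mean r of deviations -0.024, from -0.092 to 0.14), so the numbers were taken as names. The replicate block, which leaves out WT replicate 6, gave log2 fold changes of 0.32 for Plin1, 0.40 for Fitm2, 0.44 for Bscl2 and -0.33 for Hilpda, with a count of 0. Without each mouse in turn the log2 fold change of Plin1 ran from 0.28 to 0.51, Plin2 from -0.25 to 0.17, Plin3 from -0.051 to 0.13, Plin4 from -0.20 to 0.080, Plin5 from -0.24 to 0.063, Cidec from -0.061 to 0.11, Fitm2 from 0.20 to 0.44, Bscl2 from 0.07 to 0.61, Hilpda from -0.49 to -0.23 and Fitm1 from -0.55 to -0.03. The perilipin sum ran from -0.11 to 0.085, and the ratios of Fitm2 and Bscl2 to Plin1 from -0.26 to 0.13 and from -0.39 to 0.30, changing sign. The ratio of Plin4 to Plin1 had a p over 0.05 without WT replicate 2, 5 or 6 and without pKO replicate 1, 2, 3 or 4, and those of Hilpda, Plin2 and Fitm1 a p under 0.05 without single mice, and no ratio passed adjustment in any setting, and no pair by r. By rho only Plin4 and Cidec passed, without WT replicate 1 (rho = 0.85, adjusted p = 0.047, exact permutation). The causes were not tested. Fitm1 gave no value under the 10-tag filter, and with 5 and 6 mice the intervals of Bscl2 and Fitm1 leave large differences undetectable.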

Other observations

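For each droplet gene with a mean of at least 50, the other genes whose values followed it most closely over the 11 mice, with genotype means removed, were found by Pearson's r. They are a description of the highest of many correlations, between genes that share the library and scaling of each mouse. For Cidec they were Drg1 (r = 0.92) and the fatty acid transporter Cd36 (r = 0.92), for Plin1 Alox5 (0.90) and Tns3 (0.90), for Plin4 Zfyve21 (0.92) and Prpf38a (0.91), and for Plin3 Sybu (0.92) and Gm9776 (0.91). For Plin5 they were Tceal1 (0.89) and Fgfr2 (0.88), and for Hilpda Apcdd1 (0.91) and Eci3 (0.91). The genes closest to Plin2 were Ssfa2 (0.95) and Myl12b (0.95), and those closest to Bscl2 were Nudt22 (0.99) and Rragc (0.97). Closest to Fitm2 were 2700097O09Rik (0.96) and Nop2 (0.95). Plin2, Bscl2 and Fitm2 each had a low mouse, with log2 differences from the others of its genotype of -1.43, -2.41 and -1.05. By Dixon's test for an outlier, 0 of the 20 groups (each droplet gene in each genotype) had a mouse past the critical value.

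Some cell type markers passed a limma p of 0.05, and none passed an adjusted p of 0.1. Slc2a4, the insulin-responsive glucose transporter of adipocytes, averaged 613 ± 66.6 in WT mice (SD, n = 6) and 874 ± 205 in pKO animals (SD, n = 5), with no overlap, as in 1.43% of all genes (log2 fold change 0.49, limma adjusted p = 0.37), and was the 1 of 8 adipocyte markers past a limma p of 0.05. Lep, the adipokine leptin, had a log2 fold change of -0.49 (limma adjusted p = 0.55) and was called lower by DESeq2 and in the limma fits without WT replicate 4 or pKO replicate 4. The mesothelial genes Krt19 (log2 fold change 0.73) and Msln (0.57) were also higher at a limma p of at most 0.05. So were the endothelial gene Kdr (0.44) and the fibroblast gene Dcn (0.37), none of them at an adjusted p of 0.1. Msln passed in 2 and Kdr in 10 of 11 fits without a mouse. Of the markers with a mean of at least 50, 2 of 4 mesothelial, 1 of 5 endothelial and 1 of 5 fibroblast markers were called. All genes were called higher in 4.85% and lower in 5.77%. Other markers of the same cells had negative log2 fold changes, -0.39 for the endothelial gene Pecam1 and -0.45 for Pdgfrb of the fibroblast list. Pecam1 was called lower without WT replicate 4 or 5 or pKO replicate 2 or 4, and Pdgfrb without WT replicate 2 or 5 or pKO replicate 1 or 5. Cdh5 of the endothelial list (log2 fold change 0.38) was called higher by DESeq2 and without pKO replicate 4. The macrophage genes that were lower had log2 fold changes of -0.72 (Itgam), -0.90 (Itgax), -0.91 (Trem2) and -0.94 (Gpnmb), with limma adjusted p from 0.37 to 0.44. Itgax did not pass without pKO replicate 1 or 2, where Mrc1 did. Summed levels were 692 to 958 in WT and 789 to 1599 in pKO mice for mesothelial markers, 3537 to 5105 and 3804 to 4892 for endothelial markers, 28512 to 38123 and 37394 to 45511 for fibroblast markers, and 101 to 176 and 76.7 to 212 for brown and beige adipocyte markers, of which Ucp1 was not analysed here. Of 5 epididymal epithelium markers only Adam7 was analysed, at 0 in 6 of 11 mice. The part of these cells in the levels of the droplet genes was not tested.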
